A study of Mus musculus with 12 samples.

Results

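The genes described here encode collagens and other proteins of the extracellular matrix, with the enzymes and chaperones that make and cross-link collagen, in the lungs of mice given endotoxin, a tobacco carcinogen or both. The set held 48 genes named by symbol. A probe belonged to a gene when its RefSeq transcript mapped to that symbol, and the brightest kept probe stood for the gene. Of the 48 genes, 46 had such a probe, out of 17016 named genes on the array, and all 46 entered the test among 21853 items (13645 named genes and the remaining probes known by an identifier). Col12a1 and Col6a3 had no named probe and were not analysed here. A total of 44 genes were well above background on all 12 arrays. Fbln5 and Vcan passed the filter on dim probes only through PBS, where they were well above background on 3 of 3 arrays. Fbln5 was so on 0 LPS, 1 NNK and 0 LPS/NNK arrays and Vcan on 0, 2 and 2, and neither was called in any comparison.

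Total RNA of lung tissue from female FVB/N (FVB/NJ) mice was hybridised as 12 samples on Agilent arrays of 1 colour. Mice were 7 weeks old when treatment began and were killed 1 week after their last treatment. PBS mice received phosphate-buffered saline each week for 16 weeks. LPS mice received lipopolysaccharide, the endotoxin of gram-negative bacteria, by nose at 5 ug a mouse each week for 16 weeks. NNK mice received NNK, a nitrosamine carcinogen of tobacco smoke, into the peritoneum at 3 mg a mouse repeatedly over the first 4 weeks, and LPS/NNK mice received both agents. Each group had 3 arrays, numbered in the labels as 1, 2 and 3 (PBS), 1, 5 and 6 (LPS), 2, 3 and 5 (NNK) or 2, 3 and 6 (LPS/NNK). They name no genetic change, no vehicle for the NNK mice and no weekly dosing of them after the carcinogen, so the dosing itself may also differ between NNK and the other groups. The labels do not say whether NNK mice were killed at the same age as the rest. Whether tumours were part of the tissue is not given in the sources used here.

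The matrix of the lung is a mesh of fibrillar collagens and elastic fibres in the interstitium, with sheet-like basement membranes of type IV collagen and laminin under epithelium and endothelium. Fibroblasts, pericytes and smooth muscle make most interstitial collagen, while epithelial and endothelial cells also build the basement membrane on which they rest. Collagen chains are hydroxylated and folded inside the cell, trimmed outside it, assembled into fibrils under the control of small proteoglycans, and cross-linked by lysyl oxidases.

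The tissue label was borne out by lung markers: Sftpc, the surfactant protein of alveolar type 2 cells, had log2 levels from 8.41 to 10.97 over the 12 arrays, and all 11 alveolar type 2 markers listed were measured above background in every group. All levels here are log2 of the background-corrected signal minus the 75th percentile of the array, so a level of 0 is the signal at that percentile. Levels of different probes cannot be compared. Array quality followed the groups. The share of spots well above background was 70.2% to 73.1% in PBS and 55.6% to 67.5% over the treated arrays, and the 75th percentile of brightness was 699 to 984 against 183 to 510. The spike-in control probes went the other way, with a median log2 signal before scaling of 9.05 to 10.09 in PBS and 10.47 to 11.39 over the treated arrays. The part of these differences in the comparisons with PBS was not tested. The labels of PBS 1 and PBS 2 went against their genes of the sex chromosomes: Xist was at -8.43 and -8.41, not above background, and Ddx3y on the Y chromosome was at 0.83 and 1.0, whereas PBS 3 and all 9 treated arrays showed the reverse. PBS 2 also lay on a different scan day from the other 11 arrays. Calls of matrix genes against PBS are therefore given with all 3 PBS arrays and again against PBS 3 alone. That fit takes the lone PBS array to vary like the arrays of the other groups. In bulk lung, fewer cells of a type and less RNA per cell cannot be told apart. The labels do not say whether each sample came from a single mouse, and p-values measure the spread between these samples.

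Promoter sequence is shown for 5 genes on which the results turn: the pair Col4a1 and Col4a2, which were both lower in LPS/NNK than in NNK, Col3a1, which was higher, and Col1a2 and Dpt, which had the largest rise and the largest fall in LPS/NNK against PBS. The windows run from 250 bases before to 50 bases after the gene start in RefSeq (GRCm38.p6), which gave 38 windows for 31 of the 48 genes. Col4a1 and Col4a2 encode the 2 chains of the common type IV collagen and start back to back. The window of Col4a1 is chr8:11312777-11313076, reverse strand, that of Col4a2 is chr8:11312555-11312854, forward strand, and the 78 bases they share are in capitals.
Col4a1: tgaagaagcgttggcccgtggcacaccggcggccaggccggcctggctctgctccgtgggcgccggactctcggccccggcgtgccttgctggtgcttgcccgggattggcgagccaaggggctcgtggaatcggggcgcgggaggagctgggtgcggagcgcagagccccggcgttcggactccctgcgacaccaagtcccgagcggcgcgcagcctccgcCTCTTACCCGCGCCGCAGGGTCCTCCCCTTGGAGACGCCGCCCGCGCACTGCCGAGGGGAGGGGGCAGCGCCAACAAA
Col4a2: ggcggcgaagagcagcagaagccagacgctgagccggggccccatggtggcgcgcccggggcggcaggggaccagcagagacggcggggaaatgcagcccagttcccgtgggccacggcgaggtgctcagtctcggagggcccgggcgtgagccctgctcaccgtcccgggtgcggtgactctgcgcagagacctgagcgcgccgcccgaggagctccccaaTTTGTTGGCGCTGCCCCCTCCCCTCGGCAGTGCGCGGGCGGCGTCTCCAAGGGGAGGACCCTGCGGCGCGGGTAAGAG
The remaining 3 windows carry in capitals each match, on either strand, to the TATA motif (TATAAA), the CCAAT box or the GC box motif (GGGCGG), and no match overlapped another. Those of Col3a1 (chr1:45311288-45311587, forward strand), Col1a2 (chr6:4505368-4505667, forward strand) and Dpt (chr1:164796413-164796712, forward strand) are given 5′ to 3′ on the strand of the gene.
Col3a1: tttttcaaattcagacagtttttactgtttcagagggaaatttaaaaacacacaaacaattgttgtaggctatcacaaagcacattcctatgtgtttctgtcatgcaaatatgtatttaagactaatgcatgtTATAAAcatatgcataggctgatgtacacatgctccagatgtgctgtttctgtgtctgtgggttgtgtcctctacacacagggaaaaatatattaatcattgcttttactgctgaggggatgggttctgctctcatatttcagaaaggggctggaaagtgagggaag
Col1a2: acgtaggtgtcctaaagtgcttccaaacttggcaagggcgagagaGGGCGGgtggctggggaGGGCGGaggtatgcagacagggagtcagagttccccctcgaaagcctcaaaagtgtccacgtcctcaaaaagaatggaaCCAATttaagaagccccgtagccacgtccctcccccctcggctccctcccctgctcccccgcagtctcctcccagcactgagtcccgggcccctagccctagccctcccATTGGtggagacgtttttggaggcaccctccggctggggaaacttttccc
Dpt: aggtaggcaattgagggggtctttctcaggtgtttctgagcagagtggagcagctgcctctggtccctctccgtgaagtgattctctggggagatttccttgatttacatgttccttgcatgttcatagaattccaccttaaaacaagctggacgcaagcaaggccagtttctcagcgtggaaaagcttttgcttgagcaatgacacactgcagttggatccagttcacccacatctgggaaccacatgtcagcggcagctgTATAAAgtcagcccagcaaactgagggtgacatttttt
Col3a1 and Dpt held the TATA motif and neither of the other motifs, while Col1a2 held the CCAAT box and GC box motif in a total of 4 places and no TATA motif. The TATA motif was present in 15.8% of the 38 windows and in 13.6% of all 32851 RefSeq windows of the same length, the CCAAT box in 26.3% and 37.4%, and the GC box motif in 63.2% and 35.7%. A match is a description of these letters and not a measured binding site.

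LPS/NNK against NNK asked what weekly endotoxin added to the carcinogen. Fn1, Bgn, Col4a2, Lama2 and Col4a1 fell, by 1.07 to 2.04 on the log2 scale, and Col3a1, Lum, Mfap5 and Dcn rose, by 0.77 to 1.18. Those falling encode fibronectin, the small proteoglycan biglycan, both chains of the basement membrane collagen and a laminin chain. Those rising encode type III collagen, a pair of other small proteoglycans and a microfibril protein. Altogether 9 of 46 genes (19.6%) were called at an adjusted p under 0.05 in limma, where 17.3% of all 21853 items were called (7.92% higher and 9.35% lower). The share of the matrix genes was thus near that of all items, and their median difference was -0.02 against -0.06 for all items. For 14 of the 46 genes no array of one group reached those of the other, against 35.9% of all items. Without LPS/NNK 2 the count called was 14 (with 26.7% of all items called), and without NNK 5 it was 8 (13.5%). Without NNK 2 it was 2 (7.47% of all items) and without NNK 3 it was 3 (7.23%). Without LPS/NNK 3 it was 3 (8.17%) and without LPS/NNK 6 it was 2 (9.26%). The count of the matrix genes and the share of all items both depended on single arrays.

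Fn1 encodes fibronectin, the adhesive glycoprotein that links collagen and integrins. Its log2 level was 2.33, 2.27 and 2.81 in PBS, 2.27, 2.86 and 2.89 in LPS, 3.64, 3.52 and 3.41 in NNK and 2.02, 1.54 and 0.88 in LPS/NNK. All NNK arrays lay above all other arrays, and all LPS/NNK arrays lay below every array of the other groups. Fn1 fell in LPS/NNK against NNK by 2.04 (SE 0.30, adjusted p = 0.00101, n = 3 arrays a group) and was also lower than in LPS, with a log2 difference of -1.19 (SE 0.30, adjusted p = 0.0457). The call against NNK was made under all 17 alternative settings, with differences from -1.74 to -2.31 when 1 array was left out. Fitted with slide as a fixed effect, it was -1.80 (adjusted p = 0.00605) and after normexp background correction -1.56 (adjusted p = 0.0488). The 2 slides that each held an NNK and an LPS/NNK array gave -1.50 and -1.87. The call against LPS was weaker: it was made in 6 of 16 settings.

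Both other kept probes of Fn1 were also well above background on all arrays. The brighter of them read 1.38, 1.28 and 1.17 in NNK and -0.22, -1.38 and -1.82 in LPS/NNK. The dimmer read -2.06, -2.31 and -1.97 in NNK and -3.40, -3.72 and -3.95 in LPS/NNK. On both of these probes, as on the brightest, every LPS/NNK array lay below every NNK array.

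Type IV collagen is the network of all basement membranes. The log2 level of Col4a1 was 3.62, 3.81 and 3.19 in PBS, 3.74, 4.37 and 4.10 in LPS, 5.04, 4.76 and 4.87 in NNK and 4.05, 3.99 and 3.41 in LPS/NNK. For Col4a2, its partner chain, it was 3.65, 3.96 and 3.62 in PBS, 3.83, 4.65 and 4.41 in LPS, 5.18, 4.92 and 5.08 in NNK and 4.47, 3.51 and 2.89 in LPS/NNK. In both genes all NNK arrays were above all arrays of the other 3 groups. Col4a1 fell in LPS/NNK against NNK, with a log2 difference of -1.07 (SE 0.27, adjusted p = 0.0169), and so did Col4a2, with -1.44 (SE 0.35, adjusted p = 0.015). The second probe of each gene gave the same sign. LPS/NNK 2 lay nearest to NNK for Col4a2, at 4.47, while the other LPS/NNK arrays were at 3.51 and 2.89.
Lama2 encodes the laminin alpha2 chain, which anchors mesenchymal and muscle cells to their basement membrane. Its log2 level was -0.99, -0.88 and -0.73 in PBS, -1.04, -1.27 and -1.37 in LPS, -0.65, -0.72 and -1.42 in NNK and -1.75, -2.03 and -2.73 in LPS/NNK. The LPS/NNK arrays were the 3 lowest of the 12, and Lama2 fell against NNK, with a log2 difference of -1.24 (SE 0.29, adjusted p = 0.0127). Of the other basement membrane genes, 9 were not called in this comparison.

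Bgn encodes biglycan, a small proteoglycan that binds collagen and growth factors. The log2 level of Bgn was 1.85, 2.02 and 1.60 in PBS, 2.66, 3.28 and 2.71 in LPS, 3.39, 3.04 and 2.87 in NNK and 2.68, 1.20 and 0.62 in LPS/NNK. LPS/NNK 2 was close to the NNK arrays and LPS/NNK 3 and 6 lay far below them. Bgn fell in LPS/NNK against NNK, with a log2 difference of -1.60 (SE 0.41, adjusted p = 0.02), and the within-slide differences were -0.36 on the slide of LPS/NNK 2 and -1.67 on that of LPS/NNK 3.

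The small proteoglycans lumican and decorin, which bind fibrillar collagen and set fibril spacing, moved the other way from biglycan. Lum had log2 levels of 1.09, 1.12 and 1.47 in PBS, 0.89, 0.97 and 1.23 in LPS, 0.10, -0.01 and 0.94 in NNK and 0.84, 1.80 and 1.61 in LPS/NNK. Its highest NNK level lay within the range of LPS/NNK, so the groups overlapped. Dcn had log2 levels of 4.64, 4.68 and 4.68 in PBS, 4.41, 4.63 and 4.42 in LPS, 3.91, 4.19 and 4.39 in NNK and 4.67, 4.81 and 5.30 in LPS/NNK. The NNK arrays lay below the LPS/NNK arrays. Lum rose against NNK by 1.07 (SE 0.31, adjusted p = 0.0314) and Dcn by 0.77 (SE 0.23, adjusted p = 0.0381).

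Col3a1 encodes type III collagen, which forms thin reticular fibrils with type I. Its log2 level was 4.72, 4.79 and 4.28 in PBS, 5.81, 5.85 and 6.76 in LPS, 5.68, 4.90 and 5.11 in NNK and 6.18, 7.04 and 6.02 in LPS/NNK. LPS/NNK lay above NNK on all arrays, and Col3a1 rose by 1.18 (SE 0.34, adjusted p = 0.0325). The Col3a1 difference was 1.61 after normexp (adjusted p = 0.0461). The call was lost with quantile normalization, at 0.88 (adjusted p = 0.071), and with cyclic loess, at 0.95 (adjusted p = 0.0505). The second probe of Col3a1 read -2.96, -3.52 and -3.84 in NNK and -2.70, -2.04 and -2.78 in LPS/NNK. Mfap5, a protein of elastin-associated microfibrils, had log2 levels of -0.22, 0.04 and -0.79 in PBS, -0.19, -0.18 and -0.95 in LPS, -0.77, -1.03 and -1.44 in NNK and -0.11, 0.25 and -0.29 in LPS/NNK. NNK arrays lay below LPS/NNK arrays, and Mfap5 rose by 1.03 (SE 0.30, adjusted p = 0.0334).

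**Figure D1:**
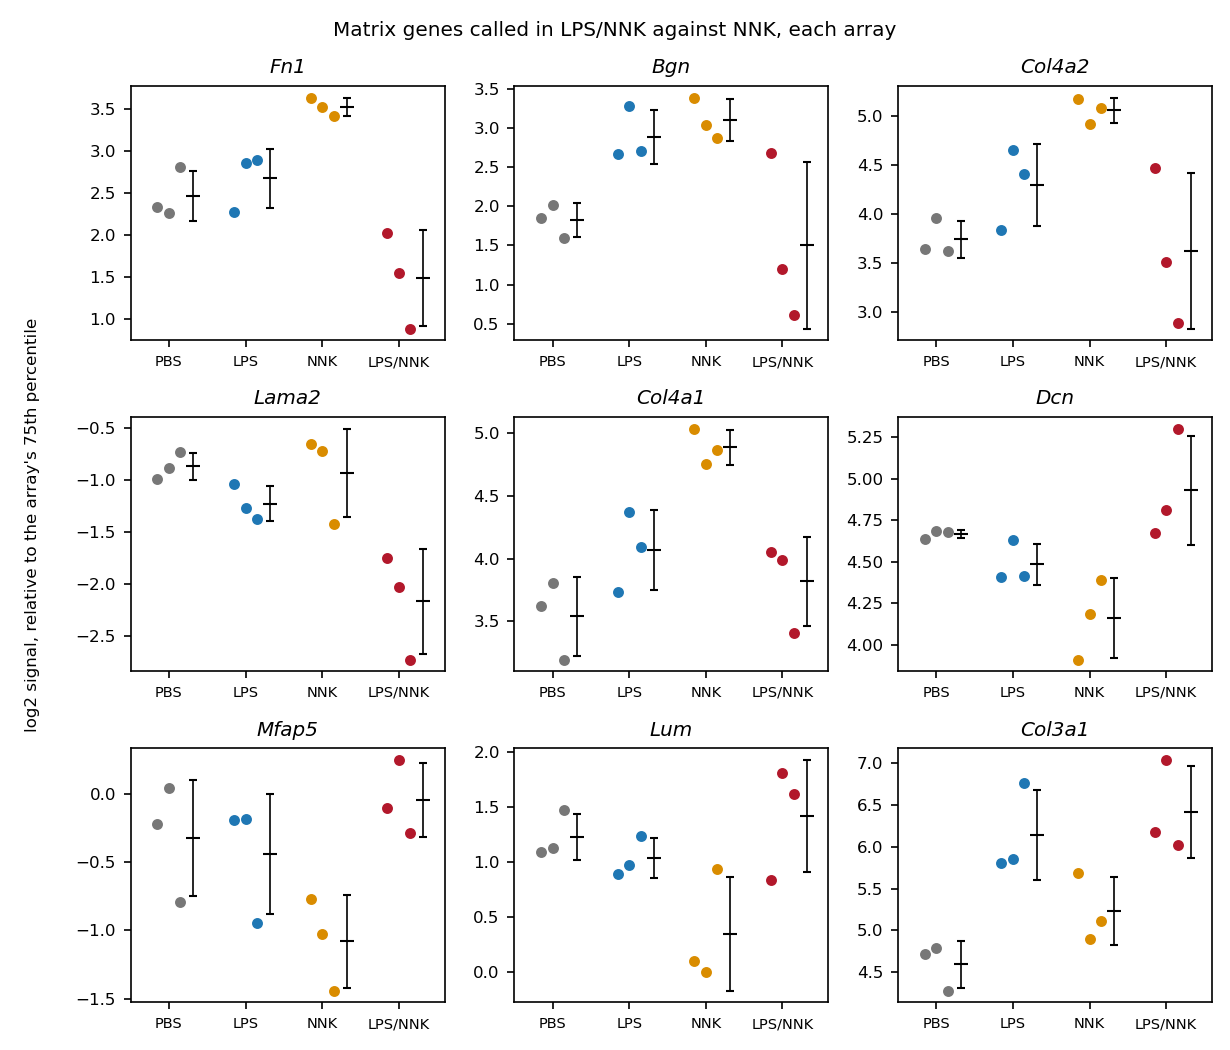
Log2 level (relative to the 75th percentile of the array) of the 9 genes called in LPS/NNK against NNK, by group, with 1 point for each array and bars for the mean and SD of 3 arrays. Fn1 is lowest in LPS/NNK, at 0.88 to 2.02, against 3.41 to 3.64 in NNK, and Lum is the gene whose NNK and LPS/NNK arrays overlap.

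These calls differed in how far they depended on the processing. In the same 17 settings Col4a1 was called in 13, Col4a2 and Lama2 in 12, Bgn in 10, Lum and Mfap5 in 9, Col3a1 in 7 and Dcn in 6. Fn1 was the gene called when slide was fitted as a fixed effect, and Fn1 and Col3a1 were called after normexp. All 9 genes kept their direction within both slides that held the 2 groups. These pairs are arrays of the same fit, and except for Lum the groups did not overlap. Their direction was thus set beforehand and is no separate test of slide.

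Markers of other cell types moved in the same comparison. Of 16 fibroblast and pericyte markers 0 rose and 4 fell, and their summed level (in units of the 75th percentile) was 419 to 572 in NNK and 248 to 319 in LPS/NNK. Of 12 smooth muscle markers 0 rose and 3 fell, with 166 to 190 in NNK and 113 to 160 in LPS/NNK. Of 12 tested heart, skeletal muscle and fat markers 0 rose and 4 fell, with 95.4 to 239 in NNK and 59.7 to 135 in LPS/NNK, and Lep was not above background in either. Of 16 leukocyte markers 7 rose and 0 fell, with 587 to 818 in NNK and 503 to 1195 in LPS/NNK. Of 16 endothelial markers 0 rose and 2 fell, with 477 to 581 and 284 to 556. The share of spots above background was also higher in LPS/NNK 2 (66.3%) than in LPS/NNK 3 and 6 (57.3% and 56.4%). Their part in the result was not tested.

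**Figure D2:**
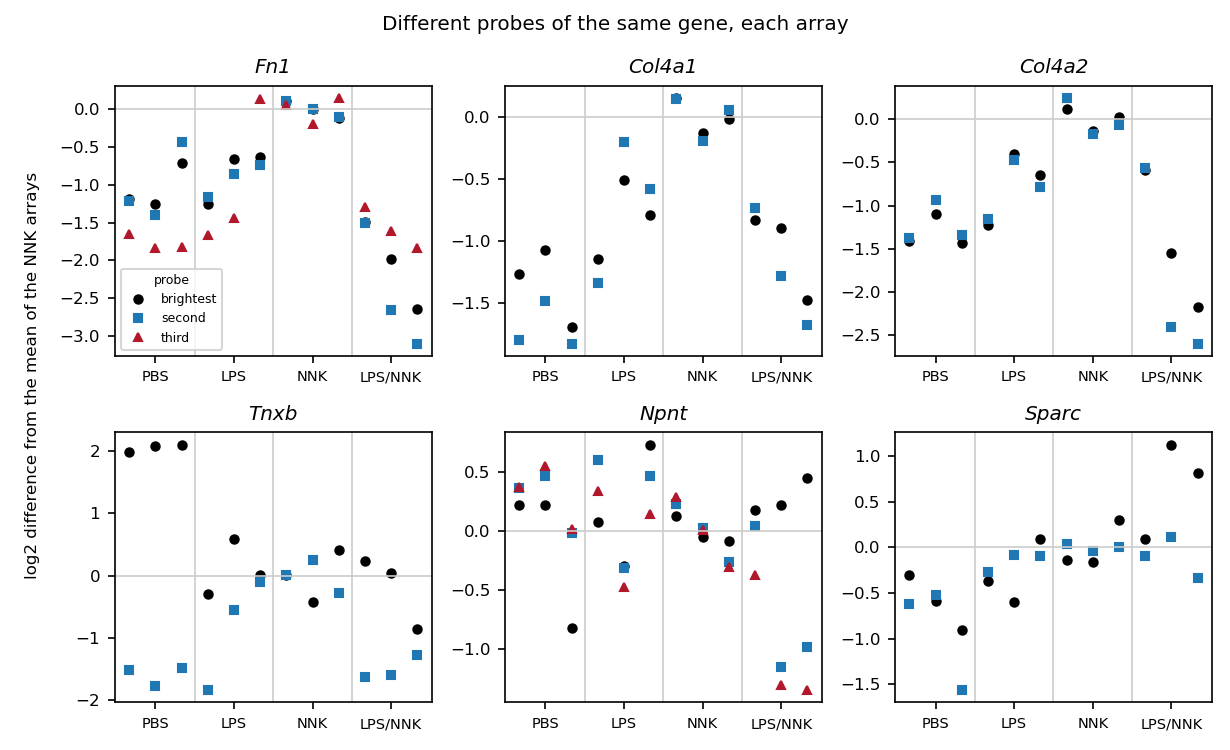
Log2 difference of each kept probe from its mean over the NNK arrays, on each of the 12 arrays. The genes shown are Fn1, Col4a1, Col4a2, Tnxb, Npnt and Sparc, with 1 symbol for each probe in order of brightness. The probes of Fn1, Col4a1 and Col4a2 are all lower in LPS/NNK than in NNK, whereas the 2 probes of Tnxb differ in direction between PBS and the treated groups.

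LPS/NNK against LPS asked what the carcinogen added to endotoxin. Fn1 was the 1 gene called of 46, and it was lower, where 4.11% of all items were called (2.85% higher and 1.26% lower). The median difference was 0.10, against 0.11 for all items, and 7 of 46 genes had groups that did not overlap, against 20.9% of items. Without LPS/NNK 2 the count was 12 (26.1%), 6 in each direction, where the share of all items called was 22.1%. Without LPS 1, LPS 5 or LPS 6 it was 0 (with 1.37%, 1.66% and 2.62% of all items called). Without LPS/NNK 3 or LPS/NNK 6 it was also 0 (0.366% and 0.499%). LPS against NNK compared the agents directly. Of the 46 genes 0 were called in limma, with 7 at an unadjusted p under 0.05, where 6.22% of items were called (2.73% higher and 3.49% lower). Differences ran from -0.91 in Plod2 to 0.91 in Col3a1, and 10 genes had groups that did not overlap, against 24.5% of items.

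Against PBS most of the genes were called in each treated group taken alone. In LPS 21 rose and 6 fell of 46 (58.7% called), in NNK 21 rose and 6 fell (58.7%), and in LPS/NNK 22 rose and 9 fell (67.4%). Over all items 56%, 51.5% and 55.1% were called, so the count called was close to that of all items in LPS and NNK. Directions were less even in the matrix genes, with medians of 0.51, 0.70 and 0.56 against -0.06, 0.04 and -0.04 over all items, where 26.1%, 27.8% and 27.9% of items were higher and 30%, 23.7% and 27.1% were lower. The median of the 13645 named genes alone was 0.21, 0.26 and 0.20. Groups did not overlap for 30, 35 and 30 of the 46 genes, against 62.5%, 67.6% and 62% of items. Called in the same direction in all 3 comparisons, which share the PBS arrays, were 15 genes that rose and 5 that fell, or 43.5% of the 46, where 34.1% of all items were (17.3% higher and 16.7% lower). The rising genes were Col1a1, Col1a2, Col5a1, Col6a1, Col6a2, Col15a1, Col16a1, Col18a1, Col4a4, Fbln1, Fbln2, Loxl1, Loxl2, Pcolce and Tnc, and the falling genes were Dpt, Tnxb, Postn, Plod2 and Col4a3.

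The split into higher and lower depended on the scaling. With quantile normalization 17 rose and 9 fell in LPS, 16 and 8 in NNK, and 16 and 10 in LPS/NNK. The shares of all items called were then 56.7%, 52.1% and 55.5%. With cyclic loess 13 rose and 9 fell in LPS, 14 and 8 in NNK, and 11 and 11 in LPS/NNK. The share of the matrix genes called was then 47.8% in each, below the 55.6%, 50% and 54.3% of all items. The median of the matrix genes was -0.01, 0.18 and 0.15, against -0.12, -0.08 and -0.14 over all items. Normexp moved the median of all items from near 0 to 0.34 in LPS, 0.55 in NNK and 0.53 in LPS/NNK, where the matrix genes had medians of 0.39, 0.23 and 0.48. Against PBS 3 alone 11 rose and 5 fell in LPS (34.8%), 14 and 3 in NNK (37.0%) and 11 and 6 in LPS/NNK (37.0%), where 26.0%, 19.7% and 30.3% of all items were called. All 27 genes called in NNK had the same direction between NNK 2 and PBS 3 on their shared slide, and all 31 called in LPS/NNK between LPS/NNK 6 and PBS 1 on theirs. These arrays helped to make the calls, and most of the called genes had groups that did not overlap. The shared direction was thus largely set beforehand and is no separate test of slide. With slide as a fixed effect 18 genes were called in NNK (30.4% of all items) and 21 in LPS/NNK (39.9%). Each LPS array lay alone on its slide, so slide and group cannot be told apart for LPS against PBS.

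**Figure D3:**
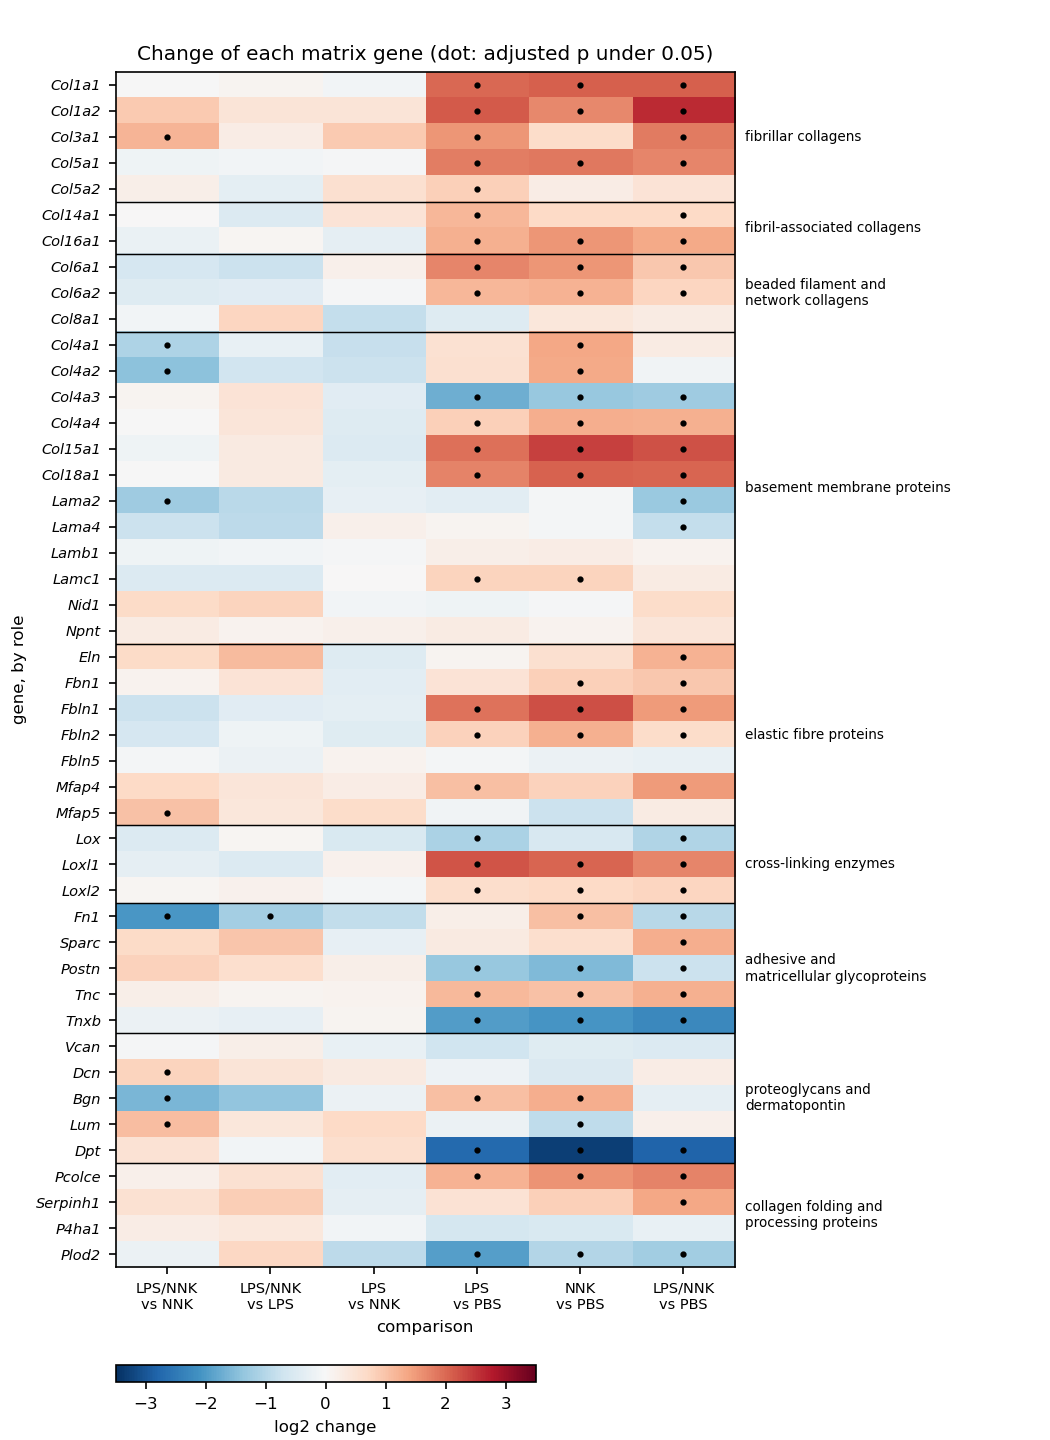
Map of the log2 difference of each of the 46 measured genes (rows, by role) in each comparison (columns), with called differences marked. The comparisons with PBS hold 27, 27 and 31 calls, and LPS/NNK against NNK holds 9.

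Fibrillar collagens form the tensile fibres of the interstitium, and all 5 rose in LPS, 3 in NNK and 4 in LPS/NNK, with median differences of 1.79, 1.68 and 1.82. The shares called were 100%, 60% and 80%, against 56%, 51.5% and 55.1% of all items. Col1a2 encodes the alpha2 chain of type I collagen and had log2 levels of 5.41, 5.07 and 4.34 in PBS, 6.62, 7.02 and 7.61 in LPS, 6.91, 6.36 and 6.59 in NNK and 7.01, 8.12 and 7.48 in LPS/NNK. All 9 treated arrays of Col1a2 were above the 3 PBS arrays. For Col1a2 the log2 difference from PBS was 2.14 in LPS, 1.68 in NNK and 2.60 in LPS/NNK (SE 0.36, adjusted p = 0.000367, 0.00223 and 7.68e-05). Col1a2 read 2.74 in LPS, 2.28 in NNK and 3.20 in LPS/NNK against PBS 3 alone (adjusted p = 0.0044, 0.0149 and 0.0015). Col1a1, the alpha1 chain, had log2 levels of 4.53, 4.32 and 3.67 in PBS, 5.48, 6.08 and 6.96 in LPS, 6.40, 5.94 and 6.49 in NNK and 6.12, 6.83 and 5.82 in LPS/NNK. The PBS arrays were below all others for Col1a1. For Col1a1 the log2 difference from PBS was 2.0 in LPS, 2.10 in NNK and 2.08 in LPS/NNK (SE 0.38, adjusted p = 0.000878, 0.000901 and 0.00058). Col1a1 read 2.50 in LPS, 2.60 in NNK and 2.58 in LPS/NNK against PBS 3 alone (adjusted p = 0.0104, 0.0142 and 0.00644). Col5a1 encodes a chain of type V collagen, which starts type I fibrils, and had log2 levels of 1.07, 0.94 and 1.25 in PBS, 2.19, 3.1 and 3.33 in LPS, 3.21, 2.84 and 2.74 in NNK and 2.66, 3.17 and 2.53 in LPS/NNK. Treated and PBS arrays of Col5a1 did not overlap, with PBS lowest. For Col5a1 the log2 difference from PBS was 1.79 in LPS, 1.84 in NNK and 1.70 in LPS/NNK (SE 0.30, adjusted p = 0.000399, 0.000537 and 0.000471). Col5a1 read 1.62 in LPS, 1.67 in NNK and 1.53 in LPS/NNK against PBS 3 alone (adjusted p = 0.0281, 0.0318 and 0.0299). Col3a1, described above, was higher than PBS by 1.54 in LPS and 1.82 in LPS/NNK and was not called in NNK (0.64). Col3a1 read 1.86 in LPS and 2.13 in LPS/NNK against PBS 3 alone (adjusted p = 0.0243 and 0.0111). Col5a2 was called in LPS (0.83). It was not called against PBS 3 alone, at 1.06 (adjusted p = 0.0836).

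Fibril-associated collagens sit on the surface of fibrils. Col16a1 had log2 levels of 3.1, 2.67 and 2.74 in PBS, 3.65, 4.08 and 4.49 in LPS, 4.29, 4.27 and 4.58 in NNK and 4.10, 4.47 and 3.89 in LPS/NNK. Every PBS array of Col16a1 lay below every treated array. For Col16a1 the log2 difference from PBS was 1.23 in LPS, 1.54 in NNK and 1.31 in LPS/NNK (SE 0.27, adjusted p = 0.0018, 0.000657 and 0.0011). Col16a1 read 1.33 in LPS, 1.64 in NNK and 1.41 in LPS/NNK against PBS 3 alone (adjusted p = 0.0334, 0.0215 and 0.0229). Col14a1 had log2 levels of 0.78, 0.63 and 0.71 in PBS, 1.62, 1.69 and 2.33 in LPS, 1.40, 1.37 and 1.45 in NNK and 0.82, 1.78 and 1.65 in LPS/NNK. All 9 treated arrays of Col14a1 were above the 3 PBS arrays. For Col14a1 the log2 difference from PBS was 1.17 in LPS, 0.70 in NNK and 0.71 in LPS/NNK (SE 0.28, adjusted p = 0.00343, 0.051 and 0.0465). Col14a1 read 1.17 in LPS and 0.70 in LPS/NNK against PBS 3 alone (adjusted p = 0.0684 and 0.241).

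Type VI collagen forms beaded filaments around cells, and both its measured chains rose in all 3 groups. Col6a1 had log2 levels of 1.47, 2.22 and 1.66 in PBS, 2.95, 3.56 and 3.93 in LPS, 3.61, 3.30 and 3.04 in NNK and 3.34, 2.60 and 2.28 in LPS/NNK. The PBS arrays were below all others for Col6a1. For Col6a1 the log2 difference from PBS was 1.70 in LPS, 1.53 in NNK and 0.95 in LPS/NNK (SE 0.34, adjusted p = 0.00106, 0.00255 and 0.0274). Col6a1 read 1.82 in LPS, 1.65 in NNK and 1.08 in LPS/NNK against PBS 3 alone (adjusted p = 0.0213, 0.0372 and 0.112). Col6a2, a second chain, had log2 levels of -0.14, 0.48 and -0.13 in PBS, 0.94, 1.40 and 1.36 in LPS, 1.69, 1.17 and 0.99 in NNK and 1.05, 0.97 and 0.45 in LPS/NNK. The Col6a2 arrays of PBS lay below those of LPS and NNK and overlapped with those of LPS/NNK. For Col6a2 the log2 difference from PBS was 1.16 in LPS, 1.21 in NNK and 0.75 in LPS/NNK (SE 0.28, adjusted p = 0.00367, 0.00355 and 0.036). Col6a2 read 1.36 in LPS, 1.41 in NNK and 0.95 in LPS/NNK against PBS 3 alone (adjusted p = 0.0318, 0.0349 and 0.0948). Col8a1, a network collagen of vessel walls, was not called in any group. Its log2 levels were 1.07, 1.01 and 1.18 in PBS, 0.19, 0.49 and 1.21 in LPS, 1.20, 1.26 and 1.95 in NNK and 0.68, 1.73 and 1.74 in LPS/NNK. The Col8a1 arrays of PBS lay below those of NNK and overlapped with those of LPS and LPS/NNK.

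Of 12 basement membrane genes 4 rose and 1 fell in LPS, 6 rose and 1 fell in NNK, and 3 rose and 3 fell in LPS/NNK. The shares called, 41.7%, 58.3% and 50%, were near or below the 56%, 51.5% and 55.1% of all items. Col15a1 and Col18a1 encode collagens that carry heparan or chondroitin sulfate chains at the basement membrane and had the smallest adjusted p of this role. Col15a1 had log2 levels of -2.20, -2.42 and -2.39 in PBS, -0.64, -0.27 and -0.32 in LPS, -0.29, 0.13 and 0.36 in NNK and -0.19, 0.37 and -0.47 in LPS/NNK. Treated and PBS arrays of Col15a1 did not overlap, with PBS lowest. For Col15a1 the log2 difference from PBS was 1.92 in LPS, 2.40 in NNK and 2.24 in LPS/NNK (SE 0.27, adjusted p = 0.000107, 9.19e-05 and 2.78e-05). Col15a1 read 1.98 in LPS, 2.45 in NNK and 2.29 in LPS/NNK against PBS 3 alone (adjusted p = 0.00854, 0.00843 and 0.00312). Col18a1, the precursor of endostatin, had log2 levels of 2.78, 2.18 and 2.54 in PBS, 3.79, 4.37 and 4.53 in LPS, 4.18, 4.29 and 5.25 in NNK and 4.15, 4.94 and 4.55 in LPS/NNK. Every PBS array of Col18a1 lay below every treated array. For Col18a1 the log2 difference from PBS was 1.73 in LPS, 2.07 in NNK and 2.05 in LPS/NNK (SE 0.33, adjusted p = 0.000864, 0.000445 and 0.000229). Col18a1 read 1.69 in LPS, 2.03 in NNK and 2.01 in LPS/NNK against PBS 3 alone (adjusted p = 0.0292, 0.0207 and 0.0119). Col4a3 encodes a chain of the type IV collagen of alveolar and glomerular basement membranes and had log2 levels of 0.35, 1.64 and 1.31 in PBS, -0.62, -0.75 and -0.49 in LPS, -0.46, -0.08 and -0.12 in NNK and -0.33, 0.10 and -0.18 in LPS/NNK. All 9 treated arrays of Col4a3 were below the 3 PBS arrays. For Col4a3 the log2 difference from PBS was -1.72 in LPS, -1.32 in NNK and -1.24 in LPS/NNK (SE 0.30, adjusted p = 0.000499, 0.00332 and 0.0038). Col4a3 read -1.93 in LPS, -1.53 in NNK and -1.45 in LPS/NNK against PBS 3 alone (adjusted p = 0.00457, 0.0171 and 0.0109). Col4a4, which assembles with Col4a3, was higher in all 3 groups, with differences of 0.82, 1.28 and 1.26. Col4a4 read 0.77 in LPS, 1.22 in NNK and 1.20 in LPS/NNK against PBS 3 alone (adjusted p = 0.155, 0.0467 and 0.037). Col4a1 and Col4a2 were called higher in NNK, by 1.34 and 1.31, and not in LPS (0.53 and 0.56) or LPS/NNK (0.28 and -0.12). Against PBS 3 alone Col4a1 kept its call in NNK, at 1.69 (adjusted p = 0.018), and Col4a2 lost it, at 1.43 (adjusted p = 0.0765). Lama2 fell in LPS/NNK, with -1.30 (SE 0.29, adjusted p = 0.00208), as did Lama4, the laminin alpha4 chain of vessel walls, with -0.83 (SE 0.32, adjusted p = 0.0404). The Lama2 difference was -1.44 (adjusted p = 0.0325) against PBS 3 alone, and Lama4 lost its call, at -0.84 (adjusted p = 0.213). Lamc1, a laminin gamma chain, was called higher in LPS (0.77) and NNK (0.77), and both calls were lost against PBS 3 alone (adjusted p = 0.0867 and 0.0999). Over all alternatives the Lamc1 call was lost in 9 of 17 settings in LPS and in 13 of 18 in NNK. Lamb1, Nid1 and Npnt were not called in any group. In LPS/NNK against PBS the brightest probe of Npnt read 0.41 and its other kept probes -0.97 and -1.32. In LPS/NNK against NNK these probes read 0.29, -0.70 and -1.01, so the direction of Npnt rests on the probe chosen.

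Elastic fibre genes rose in 3 of 7 cases in LPS, 3 in NNK and 5 in LPS/NNK, and 0 fell. The shares called were 42.9%, 42.9% and 71.4%, so those in LPS and NNK lay below the 56% and 51.5% of all items. Fbln1 encodes fibulin 1, a glycoprotein of basement membranes and elastic fibres, and had log2 levels of 1.82, 1.76 and 2.46 in PBS, 3.18, 4.05 and 4.49 in LPS, 4.44, 4.20 and 4.14 in NNK and 3.11, 3.95 and 3.43 in LPS/NNK. The PBS arrays were below all others for Fbln1. For Fbln1 the log2 difference from PBS was 1.89 in LPS, 2.24 in NNK and 1.48 in LPS/NNK (SE 0.34, adjusted p = 0.000579, 0.000347 and 0.00252). Fbln1 read 1.44 in LPS, 1.79 in NNK and 1.03 in LPS/NNK against PBS 3 alone (adjusted p = 0.0509, 0.0302 and 0.13). Fbln2, a related fibulin, had log2 levels of -0.14, 0.08 and 0.09 in PBS, 0.61, 0.93 and 0.89 in LPS, 1.42, 1.12 and 1.18 in NNK and 0.50, 1.02 and 0.44 in LPS/NNK. Treated and PBS arrays of Fbln2 did not overlap, with PBS lowest. For Fbln2 the log2 difference from PBS was 0.80 in LPS, 1.23 in NNK and 0.64 in LPS/NNK (SE 0.23, adjusted p = 0.0102, 0.00104 and 0.0308). Fbln2 read 0.72 in LPS, 1.15 in NNK and 0.56 in LPS/NNK against PBS 3 alone (adjusted p = 0.155, 0.0463 and 0.259). Mfap4, a microfibril-associated protein of elastic tissue, had log2 levels of 5.15, 4.53 and 5.31 in PBS, 6.37, 5.85 and 5.94 in LPS, 5.93, 5.49 and 5.96 in NNK and 6.04, 7.16 and 6.25 in LPS/NNK. Every PBS array of Mfap4 lay below every treated array. For Mfap4 the log2 difference from PBS was 1.05 in LPS, 0.80 in NNK and 1.48 in LPS/NNK (SE 0.32, adjusted p = 0.0132, 0.0514 and 0.00167). Mfap4 read 0.74 in LPS and 1.17 in LPS/NNK against PBS 3 alone (adjusted p = 0.238 and 0.0721). With cyclic loess the Mfap4 difference in LPS was -0.01 (adjusted p = 0.989). Eln, which encodes elastin itself, was called in LPS/NNK, at 1.21 (SE 0.40, adjusted p = 0.021), and not in LPS (0.10) or NNK (0.55). Fbn1, the main microfibril protein, was called in NNK (0.83) and LPS/NNK (0.94). All 3 of these calls were lost against PBS 3 alone, with Eln at 1.03 (adjusted p = 0.211) and Fbn1 at 1.02 (adjusted p = 0.143) in NNK and 1.13 (adjusted p = 0.0916) in LPS/NNK. The Fbn1 call in NNK was lost in 11 of 18 settings. The second kept probe of Fbn1 read 0.64 in NNK and 0.03 in LPS/NNK against all 3 PBS arrays. With the mean of its probes the Fbn1 call in LPS/NNK was lost.

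The lysyl oxidases cross-link collagen and elastin, and they were called in both directions. Loxl1, the form needed for elastic fibre renewal, had log2 levels of 1.95, 1.90 and 2.56 in PBS, 3.91, 4.73 and 4.39 in LPS, 4.61, 4.11 and 3.83 in NNK and 4.55, 3.53 and 3.49 in LPS/NNK. All 9 treated arrays of Loxl1 were above the 3 PBS arrays. For Loxl1 the log2 difference from PBS was 2.21 in LPS, 2.05 in NNK and 1.72 in LPS/NNK (SE 0.34, adjusted p = 0.000225, 0.000579 and 0.00099). Loxl1 read 1.79 in LPS, 1.62 in NNK and 1.30 in LPS/NNK against PBS 3 alone (adjusted p = 0.0254, 0.0434 and 0.0691). Loxl2 had log2 levels of -2.68, -2.90 and -3.32 in PBS, -2.54, -2.48 and -2.04 in LPS, -2.16, -2.39 and -2.28 in NNK and -2.24, -2.04 and -2.34 in LPS/NNK. The PBS arrays were below all others for Loxl2. For Loxl2 the log2 difference from PBS was 0.62 in LPS, 0.70 in NNK and 0.76 in LPS/NNK (SE 0.24, adjusted p = 0.0426, 0.0277 and 0.0159). Loxl2 read 0.97 in LPS, 1.05 in NNK and 1.12 in LPS/NNK against PBS 3 alone (adjusted p = 0.0598, 0.0547 and 0.0327). Lox itself had log2 levels of -0.15, -0.62 and -0.81 in PBS, -1.63, -1.75 and -1.52 in LPS, -0.81, -0.57 and -1.89 in NNK and -1.87, -1.34 and -1.5 in LPS/NNK. The Lox arrays of PBS lay above those of LPS and LPS/NNK and overlapped with those of NNK. For Lox the log2 difference from PBS was -1.11 in LPS, -0.56 in NNK and -1.04 in LPS/NNK (SE 0.32, adjusted p = 0.0108, 0.158 and 0.0146). Lox read -0.83 in LPS and -0.76 in LPS/NNK against PBS 3 alone (adjusted p = 0.206 and 0.24). Lox was thus called lower in LPS and LPS/NNK where Loxl1 and Loxl2 were called higher.

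**Figure D4:**
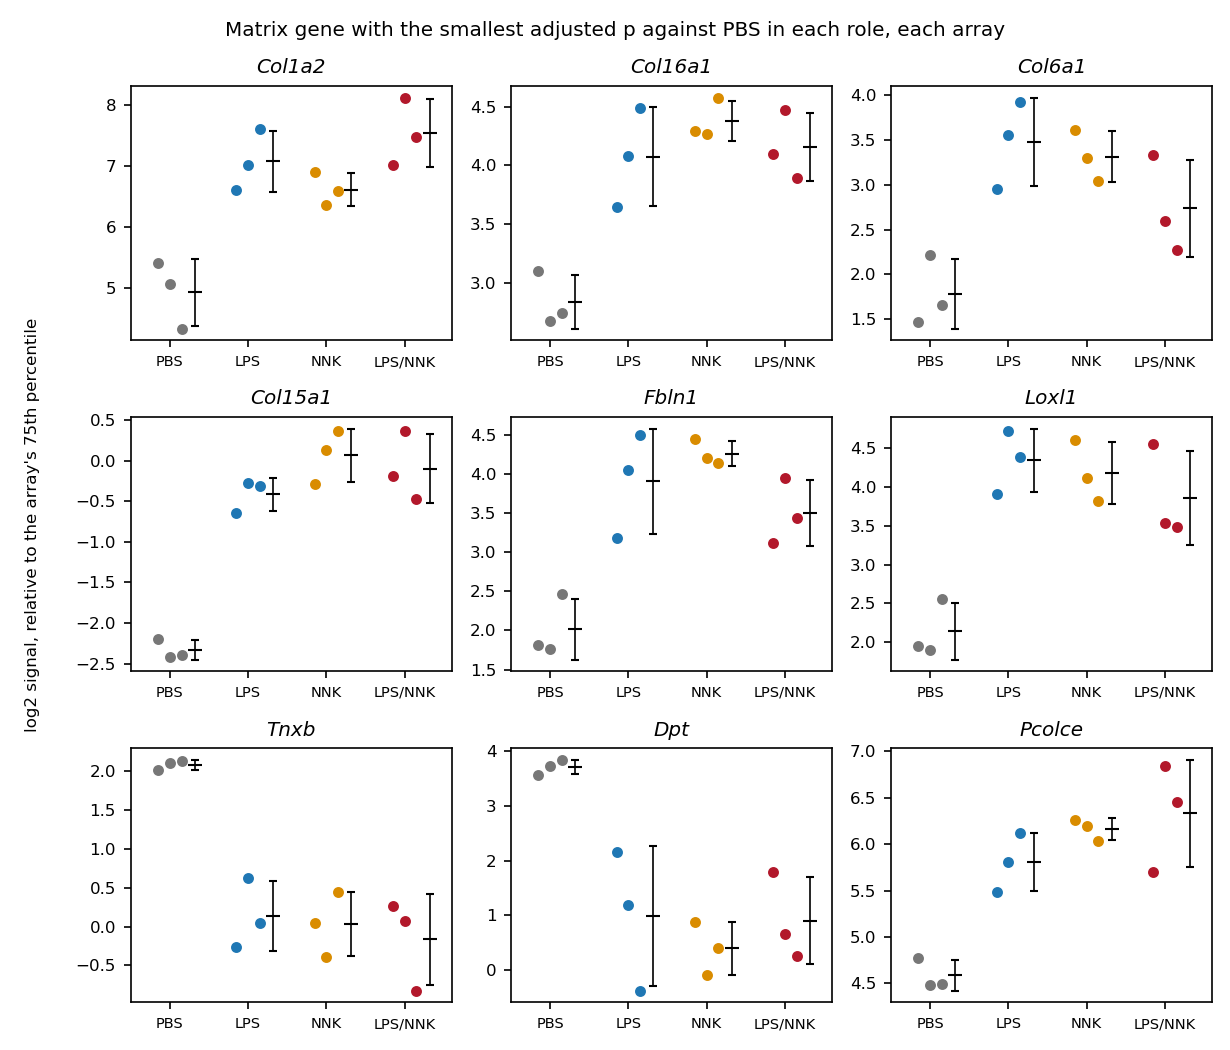
Log2 level (relative to the 75th percentile of the array) of the gene with the smallest adjusted p against PBS in each of 9 roles, with 1 point for each array and bars for the mean and SD of 3 arrays. Tnxb (2.01 to 2.14) and Dpt (3.56 to 3.82) are highest in PBS, and the other 7 genes are lowest there.

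Adhesive and matricellular glycoproteins went in both directions. Tnxb encodes tenascin X, which stabilises collagen fibrils, and its brightest probe had log2 levels of 2.01, 2.11 and 2.14 in PBS, -0.26, 0.62 and 0.05 in LPS, 0.04, -0.39 and 0.45 in NNK and 0.27, 0.07 and -0.83 in LPS/NNK. Treated and PBS arrays of Tnxb did not overlap, with PBS highest. For Tnxb the log2 difference from PBS was -1.95 in LPS, -2.05 in NNK and -2.25 in LPS/NNK (SE 0.33, adjusted p = 0.000372, 0.000445 and 0.000111). Tnxb read -2.0 in LPS, -2.10 in NNK and -2.30 in LPS/NNK against PBS 3 alone (adjusted p = 0.0175, 0.0205 and 0.00751). A second Tnxb probe went the other way in LPS and NNK, with -2.76, -3.02 and -2.72 in PBS and -1.23, -0.99 and -1.52 in NNK, so the direction of Tnxb rests on the probe chosen. Postn, periostin, a matricellular protein tied to fibrosis, had log2 levels of 3.89, 3.86 and 3.25 in PBS, 2.23, 2.62 and 2.14 in LPS, 1.60, 2.11 and 2.63 in NNK and 2.62, 3.15 and 2.99 in LPS/NNK. Every PBS array of Postn lay above every treated array. For Postn the log2 difference from PBS was -1.34 in LPS, -1.56 in NNK and -0.74 in LPS/NNK (SE 0.30, adjusted p = 0.00222, 0.00119 and 0.0482). Postn read -0.93 in LPS, -1.14 in NNK and -0.33 in LPS/NNK against PBS 3 alone (adjusted p = 0.129, 0.0822 and 0.59). Sparc, a collagen-binding matricellular protein, had log2 levels of 6.19, 5.90 and 5.59 in PBS, 6.12, 5.89 and 6.58 in LPS, 6.35, 6.33 and 6.79 in NNK and 6.58, 7.61 and 7.30 in LPS/NNK. The Sparc arrays of PBS lay below those of NNK and LPS/NNK and overlapped with those of LPS. For Sparc the log2 difference from PBS was 0.31 in LPS, 0.60 in NNK and 1.27 in LPS/NNK (SE 0.30, adjusted p = 0.405, 0.112 and 0.00316). Sparc read 1.58 in LPS/NNK against PBS 3 alone (adjusted p = 0.0228). With cyclic loess the Sparc difference in LPS/NNK was -0.10 (adjusted p = 0.740). Fn1 was higher than PBS in NNK, at 1.06 (SE 0.30, adjusted p = 0.0111), and lower in LPS/NNK, at -0.98 (SE 0.30, adjusted p = 0.0139), where its kept probes differed in sign. Against PBS 3 alone Fn1 lost its call in NNK, at 0.71 (adjusted p = 0.263), and kept that in LPS/NNK, at -1.33 (adjusted p = 0.0442). Tnc, tenascin C, rose in all 3 groups, by 1.15, 1.02 and 1.24. None of the 3 Tnc calls held against PBS 3 alone. Tnc read 0.94 in LPS, 0.81 in NNK and 1.03 in LPS/NNK against PBS 3 alone (adjusted p = 0.17, 0.246 and 0.131).

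Dpt encodes dermatopontin, a small matrix protein that binds decorin and speeds collagen fibril formation. It had log2 levels of 3.56, 3.73 and 3.82 in PBS, 2.15, 1.19 and -0.37 in LPS, 0.89, -0.08 and 0.40 in NNK and 1.80, 0.66 and 0.27 in LPS/NNK. All 9 treated arrays of Dpt were below the 3 PBS arrays. For Dpt the log2 difference from PBS was -2.72 in LPS, -3.30 in NNK and -2.80 in LPS/NNK (SE 0.53, adjusted p = 0.00101, 0.000469 and 0.000722). Dpt read -2.84 in LPS, -3.42 in NNK and -2.92 in LPS/NNK against PBS 3 alone (adjusted p = 0.027, 0.0194 and 0.0202). The LPS arrays of Dpt spread widely, and their highest value stood well above their lowest. Bgn was higher than PBS in LPS and NNK, by 1.06 and 1.27, and Lum was lower in NNK, with a log2 difference of -0.88 (SE 0.31, adjusted p = 0.0292). These calls were lost against PBS 3 alone, with Bgn at 1.28 (adjusted p = 0.143) in LPS and 1.5 (adjusted p = 0.107) in NNK and Lum at -1.12 (adjusted p = 0.108). The Bgn call in LPS was lost in 11 of 17 settings. Dcn was not called against PBS in any group.

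Of the 4 genes of collagen folding and processing, P4ha1, a subunit of prolyl 4-hydroxylase, was not called. Pcolce encodes the enhancer of procollagen C-proteinase and had log2 levels of 4.78, 4.48 and 4.50 in PBS, 5.49, 5.81 and 6.12 in LPS, 6.26, 6.19 and 6.04 in NNK and 5.70, 6.84 and 6.45 in LPS/NNK. The PBS arrays were below all others for Pcolce. For Pcolce the log2 difference from PBS was 1.22 in LPS, 1.58 in NNK and 1.75 in LPS/NNK (SE 0.29, adjusted p = 0.00321, 0.000909 and 0.000265). Pcolce read 1.31 in LPS, 1.66 in NNK and 1.84 in LPS/NNK against PBS 3 alone (adjusted p = 0.0495, 0.0274 and 0.0111). Plod2 encodes the lysyl hydroxylase of collagen telopeptides and had log2 levels of -0.01, 0.10 and 0.44 in PBS, -1.81, -1.81 and -1.65 in LPS, -1.12, -0.65 and -0.76 in NNK and -1.95, -0.69 and -0.48 in LPS/NNK. Treated and PBS arrays of Plod2 did not overlap, with PBS highest. For Plod2 the log2 difference from PBS was -1.93 in LPS, -1.02 in NNK and -1.22 in LPS/NNK (SE 0.33, adjusted p = 0.000433, 0.0212 and 0.00742). Plod2 read -2.19 in LPS, -1.28 in NNK and -1.48 in LPS/NNK against PBS 3 alone (adjusted p = 0.0119, 0.0904 and 0.045). Serpinh1 encodes the collagen chaperone HSP47 and had log2 levels of 5.77, 5.36 and 5.74 in PBS, 5.77, 5.89 and 6.72 in LPS, 6.06, 6.43 and 6.85 in NNK and 6.14, 7.46 and 7.32 in LPS/NNK. The Serpinh1 arrays of PBS lay below those of NNK and LPS/NNK and overlapped with those of LPS. For Serpinh1 the log2 difference from PBS was 0.50 in LPS, 0.82 in NNK and 1.35 in LPS/NNK (SE 0.37, adjusted p = 0.26, 0.0756 and 0.00723). Serpinh1 read 1.23 in LPS/NNK against PBS 3 alone (adjusted p = 0.112).

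Cell-type markers also differed from PBS. The summed level of 12 smooth muscle markers was 62.4 to 82.9 in PBS, 91.4 to 128 in LPS, 166 to 190 in NNK and 113 to 160 in LPS/NNK, and 6, 8 and 3 of them rose while 1 fell in each. The sum for 16 fibroblast and pericyte markers was 450 to 469 in PBS and 307 to 434 in LPS, with 4 up and 5 down in LPS, 4 and 4 in NNK, and 3 and 7 in LPS/NNK. Fap and Gli1 were not above background on any LPS array. Alveolar type 2 markers summed to 630 to 924 in PBS, 1266 to 1636 in LPS, 1500 to 2173 in NNK and 1347 to 2733 in LPS/NNK, and 8, 9 and 6 of 11 rose while 1, 0 and 1 fell. Leukocyte markers summed to 225 to 397 in PBS, 394 to 637 in LPS, 587 to 818 in NNK and 503 to 1195 in LPS/NNK, and 9, 5 and 11 of 16 rose while 0, 3 and 0 fell. Cartilage markers summed to 5.26 to 5.77 in PBS and 6.74 to 12.0 over the treated arrays, and Matn1 and Matn3 were not above background on any array. Their part in the result was not tested.

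The interaction of LPS and NNK is the difference with LPS in mice given NNK minus the difference with LPS in mice not given it, and so it rests on PBS. Of 46 genes 24 were called, 8 positive and 16 negative, where 38.7% of items were called (20.1% positive and 18.6% negative). The median of the matrix genes was -0.58, against 0.01 over all items and -0.24 over the 13645 named genes. Against PBS 3 alone 11 were called (2 positive and 9 negative, 23.9% against 12.0% of all items), and after normexp 0 were called, with 0.233% of all items.

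Genes of the same pathways outside the set were also read in LPS/NNK against NNK, with 9.38% to 33.3% of a list called against 17.3% of all items. Of 17 tested collagens outside the set 1 rose and 2 fell: Col2a1 (1.13, adjusted p = 0.0279), Col8a2 (-1.11, adjusted p = 0.0244) and Col26a1 (-1.26, adjusted p = 0.0332). Of 18 elastic fibre genes 1 rose and 3 fell, with Fbn2, a fibrillin, at -2.43, adjusted p = 0.00461, Adamtsl2 at -1.37, adjusted p = 0.00682 and Ltbp4, which stores latent TGF-beta, at -1.36, adjusted p = 0.00954. Of 12 basement membrane genes 0 rose and 4 fell, among them the laminin chain Lamc3 at -1.46, adjusted p = 0.00222 and Frem2 at -1.68, adjusted p = 0.00948. Of 32 proteoglycan and matricellular genes 0 rose and 3 fell, namely Ogn (-1.55, adjusted p = 0.013), Ccn1 (-1.12, adjusted p = 0.0356) and Omd (-1.63, adjusted p = 0.0396). Of 20 collagen processing genes 0 rose and 3 fell, namely Colgalt2 (-1.55, adjusted p = 0.00125), P3h4 (-0.95, adjusted p = 0.0111) and P3h2 (-1.04, adjusted p = 0.0347). Of 22 TGF-beta pathway genes 0 rose and 3 fell, namely Bambi (-1.48, adjusted p = 0.00593), Smad6 (-1.40, adjusted p = 0.00698) and Acvrl1 (-1.30, adjusted p = 0.0246). Of 18 matrix receptors Lair1, a collagen receptor of leukocytes, rose (2.25, adjusted p = 0.000536) and 3 integrin chains fell, among them Itga7 (-1.86, adjusted p = 0.00798) and Itga3 (-1.26, adjusted p = 0.0157).

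In LPS/NNK against LPS the calls in these lists were Col2a1 (1.28, adjusted p = 0.0422), Emilin3 (1.63, adjusted p = 0.0185) and Thbs1 (1.41, adjusted p = 0.0474), which were higher, and Smad6 (-1.30, adjusted p = 0.0297), which was lower. In LPS against NNK, Lair1 was higher (1.63, adjusted p = 0.00629). Emilin3 (-1.46, adjusted p = 0.0141), Fbn2 (-1.99, adjusted p = 0.0229), Thbs1 (-1.5, adjusted p = 0.026), Ccn1 (-1.38, adjusted p = 0.0279), Ncan (-1.25, adjusted p = 0.0498) and Colgalt2 (-1.01, adjusted p = 0.0234) were lower. Genes outside the set were not read against PBS 3 alone, so their values against PBS use all 3 PBS arrays. In LPS, NNK and LPS/NNK against PBS 66.7%, 61.1% and 61.1% of the elastic fibre genes outside the set were called. For the collagens outside it the shares were 41.2%, 52.9% and 41.2%, and for the basement membrane genes 33.3%, 50% and 25%. Of all items 56%, 51.5% and 55.1% were called. Against PBS, Fbln7, a fibulin outside the set, was higher in LPS (3.72, adjusted p = 9.15e-06), NNK (3.20, adjusted p = 9.19e-05) and LPS/NNK (4.12, adjusted p = 3.71e-06). Tgfb3, a TGF-beta ligand, was higher in the same 3 groups (1.63, adjusted p = 0.000523, 1.60, adjusted p = 0.000857 and 1.87, adjusted p = 0.000165), and Omd, a small proteoglycan, was lower in LPS (-3.41, adjusted p = 0.000158), NNK (-1.91, adjusted p = 0.00703) and LPS/NNK (-3.54, adjusted p = 9.17e-05).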

How the data were processed

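RNA of 12 mouse lung samples was measured on Agilent arrays (design 14868), 3 arrays in each of 4 groups assigned from the labels. The deposited scanner files hold an intensity for each spot, which per the file headers was made by Agilent Feature Extraction 10.7.3.1 with the background subtracted within each array and no scaling between arrays. Marks for outlier spots and for spots well above background come with the deposited files, set by that software. The deposited series table holds log2 values; the submitters' processing notes name Partek, with no version and no role. It was used as an alternative. At least 99.85% of probes on each array were within 0.01 of the values computed here, 178 probes differed by more on at least 1 array, and the largest difference was 10.3.

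Outlier spots were left out and spots of a probe averaged, which left 41137 of 41174 probes. Gene names came from RefSeq accessions and were found for 24375 probes (59.2%). The filter kept the 28331 probes that all arrays of 1 or more groups showed well above background, and the brightest kept probe stood for its gene. The log2 processed signal, less its 75th percentile on that array, was fitted over all 12 arrays in limma 3.58.1 (R 4.3.3), with 8 residual and 5.5 prior degrees of freedom. An item counted as called below an adjusted p of 0.05 (Benjamini-Hochberg over all 21853 items, 2-sided). An exact permutation test of 3 arrays against 3 cannot go below p = 0.1. The number of arrays limits the precision. The fit was first run on simulated data whose changes were known.

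The genes, the lists of other genes and the rules were chosen with earlier results of these data known. Values of each array are given for genes called between treated groups and for the 3 genes of each role with the smallest adjusted p against PBS, and up to 3 genes of each outside list are named by adjusted p. The column of mean signals that the normexp alternative was to use was not among those in the files used here, so it ran on median signals with an offset of 50. Other alternatives were quantile normalization, cyclic loess, the filter, the mean of a gene's probes, only the groups compared, the slide, the replicate number, each array left out in turn and no PBS 1 and PBS 2. Samples with the same number in the labels did not all deviate together, with correlations from -0.147 to 0.408. Arrays of 1 slide had a consensus correlation of 0.241.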

Additional observations from a re-analysis of the deposited data

Results flagged for a closer look

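For 24 of the 46 genes the log2 difference made by LPS was not the same in mice given NNK as in mice not given it, by the interaction term of the limma fit, where 38.7% of all items were called. The term is the difference with LPS under NNK minus that without it. It was negative for Bgn (-2.66, SE 0.58, adjusted p = 0.00506), Fbln1 (-2.65, SE 0.48, adjusted p = 0.00239), Loxl1 (-2.53, SE 0.48, adjusted p = 0.00287), Col6a1 (-2.28, SE 0.47, adjusted p = 0.00407), Fn1 (-2.24, SE 0.43, adjusted p = 0.00282) and Col15a1 (-2.09, SE 0.38, adjusted p = 0.00234). It was also negative for Col1a1 (-2.02, SE 0.54, adjusted p = 0.0122), Col4a2 (-1.99, SE 0.49, adjusted p = 0.00852), Col5a1 (-1.93, SE 0.43, adjusted p = 0.00532), Col18a1 (-1.75, SE 0.47, adjusted p = 0.0118) and Col6a2 (-1.62, SE 0.40, adjusted p = 0.00818), and for Col4a1 (-1.59, SE 0.38, adjusted p = 0.00683), Col16a1 (-1.46, SE 0.38, adjusted p = 0.0101), Fbln2 (-1.39, SE 0.33, adjusted p = 0.00674), Lamc1 (-1.26, SE 0.42, adjusted p = 0.0306) and Col14a1 (-1.17, SE 0.40, adjusted p = 0.0335). It was positive for Dpt (3.22, SE 0.75, adjusted p = 0.00661), Postn (2.15, SE 0.42, adjusted p = 0.00311), Col4a3 (1.80, SE 0.43, adjusted p = 0.00704) and Tnxb (1.75, SE 0.46, adjusted p = 0.0114), and for Plod2 (1.73, SE 0.47, adjusted p = 0.0127), Lum (1.27, SE 0.44, adjusted p = 0.0355), Mfap5 (1.15, SE 0.43, adjusted p = 0.0482) and Dcn (0.95, SE 0.33, adjusted p = 0.0367).

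For Fbln1 the difference with LPS was 1.89 without NNK and -0.76 with it. For Fn1 it was 0.20 without NNK and -2.04 with it, and for Bgn 1.06 and -1.60. For Dpt it was -2.72 without NNK and 0.50 with it. The term rests on the PBS arrays. Against PBS 3 alone 11 genes were called (23.9%, with 12.0% of all items), and after normexp background correction 0 of 46 were called in limma, with 0.233% of all items. The Tnxb and Col5a1 terms rest on the probe chosen. The second probe of Col5a1 gave 0.04, where the brightest gave -1.93, and the call was lost with the mean of its probes.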

How the results depend on the processing

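The main counts of genes called were 9 in LPS/NNK against NNK, 1 in LPS/NNK against LPS and 0 in LPS against NNK. Against PBS they were 27 in LPS, 27 in NNK and 31 in LPS/NNK, and in the interaction 24. Settings that changed a count by more than 1.5 times follow. The replicate block and the fits without 1 array are given in full, with smaller changes included. Normexp background correction gave 16 in LPS against PBS (18.9% of all items called) and 2 in LPS/NNK against NNK (1.62%). In LPS/NNK against LPS it gave 0, as it did for all items. It gave 15 in NNK against PBS (36.6% of all items), 15 in LPS/NNK against PBS (29.5%) and 0 in the interaction (0.233%). It also moved the median of all items, by up to 0.57 (LPS/NNK against PBS), and the cause of the lost calls was not tested. Without PBS 1 and PBS 2 the counts were 16, 17, 17 and 11 in LPS, NNK and LPS/NNK against PBS and in the interaction, with fewer arrays in the fit. In LPS/NNK against NNK the count was 5 with no filter (7.65% of all items) and 5 with only the groups compared (13.3%). It was 1 when slide was a fixed effect (12.0%). In LPS/NNK against LPS the count was 0 with quantile normalization (3.54% of all items) and with no filter (1.05%). The mean of a gene's probes (4.26%) and only the groups compared (0.174%) also gave 0 there. The replicate block gave 4 in LPS/NNK against LPS (8.68% of all items) and 8 in LPS/NNK against NNK (16.9%), although the labels do not say that samples of the same number are paired. It gave 24, 25, 26 and 21 in LPS, NNK and LPS/NNK against PBS and the interaction (54.0%, 51.2%, 55.1% and 39.6% of all items). Leaving out 1 array at a time gave 2 to 14 in LPS/NNK against NNK, 0 to 12 in LPS/NNK against LPS and 0 in LPS against NNK. The shares of all items called ran from 7.23% to 26.7%, 0.366% to 22.1% and 2.75% to 9.74%. Against PBS it gave 23 to 26 in LPS, 20 to 25 in NNK and 23 to 29 in LPS/NNK, and it gave 19 to 25 in the interaction. Of all items 46.7% to 53.2%, 39.6% to 47.1%, 46.6% to 54.3% and 28.5% to 45.6% were then called. For the single genes, 95 of 153 results in LPS/NNK against NNK kept their call and none reversed. Of all the others 3 reversed: Mfap4 in LPS against PBS (-0.0053, adjusted p = 0.989) and Sparc in LPS/NNK against PBS (-0.0967, adjusted p = 0.740) with cyclic loess, and the Tnxb interaction (-0.254, adjusted p = 0.615) with the mean of its probes; its 2 probes differ in sign. The slide as a fixed effect could be fitted only for the 3 comparisons whose groups share slides, and a fit of only the groups compared was not run for the interaction, which uses all 4 groups. The precision was limited by 3 arrays a group, and by background for Fbln5 and Vcan, which were well above it in full only in PBS.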
